A study of Mus musculus with 6 samples.

Results

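The glycolysis, pentose phosphate and hypoxia genes described here are 38 genes, 20 of glycolysis and its control, 7 of the pentose phosphate pathway and 11 of the hypoxia response, among the 54347 gene rows of a transcriptome table of cultured mouse microglia. They were chosen by name, as a list of pathway genes, and every row of the table bearing one of these symbols was taken. The choice was made with earlier results of these data known. Aldoa has 2 rows, so the 38 symbols gave 39 rows. Of these, 36 rows, each of a different gene, had a mean of at least 1 TPM over the libraries and were tested. TPM is a transcript's abundance as a share of its library after division by its length. The second Aldoa row, Vegfa and Egln3 did not reach that level and are given by value only.

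Glycolysis splits glucose into pyruvate in the cytosol, and lactate dehydrogenase interconverts pyruvate and lactate. The pentose phosphate pathway branches off at glucose 6-phosphate: its oxidative steps yield NADPH and its non-oxidative steps interconvert sugar phosphates and give ribose for nucleotides. NADPH feeds both the oxidative burst of phagocytes and the repair of oxidised glutathione, and microglia, the resident macrophages of the brain, are known to change their use of glucose on activation. When oxygen is low, hypoxia-inducible factors (HIFs) escape degradation, pair with ARNT and bind short DNA motifs near many of the glycolytic genes.

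The study compared 3 libraries from Plcg2+/+ microglia with 3 from Plcg2-/- microglia, both on the C57BL/6 strain and from littermates. Plcg2 encodes phospholipase C gamma 2, a signalling enzyme downstream of immune receptors in myeloid cells. Forebrains of pups 2 to 3 days old were grown as mixed glia with 10% serum and 5 ng/mL GM-CSF, microglia were shaken off on day 12 to 13, and they rested for at least 72 h in 1% serum with 0.5 ng/mL GM-CSF. No stimulus or oxygen treatment is named for either genotype. The labels give neither the allele's construction, nor the sex of the pups, nor which libraries share a litter, and they do not say that libraries are separate animals or cultures. The p-values therefore measure the spread between these libraries, which may be technical. TPM values divide by transcript length, so levels of different genes can be compared, but they keep no read depth.

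Plcg2 itself was measured at 45.2, 39.7 and 54.9 TPM in the Plcg2+/+ libraries and at 16.05, 16.7 and 16.1 TPM in the Plcg2-/- libraries, lower in each of the latter. Of 10 microglial markers, 8 averaged at least 1 TPM. Csf1r and C1qa were at 368 TPM or more in every library, whereas Tmem119 and Sall1, which mark microglia in the intact brain, were at 1.47 TPM or less. By limma, 3 of these markers were called higher in Plcg2-/- and 2 lower. P2ry12, Aif1 and Fcrls rose from means of 5.68, 19.1 and 2.80 TPM to 23.8, 99.6 and 37.3 TPM, and Itgam and Cx3cr1 fell from 429 and 2.06 TPM to 81.8 and 0.244 TPM. The Plcg2-/- library 1 stands apart: it held both Xist, at 18.4 TPM, and the Y-linked Ddx3y, at 17.0 TPM. The other libraries held one or the other, with Ddx3y above 1 TPM in Plcg2+/+ libraries 2 and 3. Mitochondrially encoded transcripts made up 13.6% to 17.3% of TPM in Plcg2+/+ and 5.00% to 8.68% in Plcg2-/- libraries, and TPM is a share of the library's total. The median log2 fold change over the 12652 tested genes was 0.19, and median-of-ratios scaling brought it to -0.0045. It was 0.066 without the mitochondrially encoded genes. In bulk samples such as these, fewer cells of a type and less RNA per cell cannot be told apart.

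The HIF binding core is ACGTG or GCGTG, and these letters were searched on both strands in the 250 bases before each gene's start in RefSeq (build GRCm38.p6). Overlapping matches in CACGTG, which holds ACGTG on each strand, were each counted. At least 1 match was present for 31 of the 35 members with an entry, or 88.6%, against 41.5% of all 27025 genes with an entry and 60.95% of the 9258 tested genes with one. The matches covered 18 of 20 glycolysis, 6 of 7 pentose phosphate and 7 of 8 hypoxia members, while Gpi1, Tpi1, Rpe and Vhl had none. A match is a description of the letters and says nothing of binding. The windows of 4 enzymes whose transcripts are compared below are printed 5′ to 3′ in the direction of the gene, with matched letters in capitals. They lie at chr7:46845554-46845803 on the plus strand for Ldha (1 of its 2 recorded starts), chr6:142507958-142508207 on the minus strand for Ldhb, chrX:74428881-74429130 on the minus strand for G6pdx and chr1:66700581-66700830 on the plus strand for Rpe.
Ldha: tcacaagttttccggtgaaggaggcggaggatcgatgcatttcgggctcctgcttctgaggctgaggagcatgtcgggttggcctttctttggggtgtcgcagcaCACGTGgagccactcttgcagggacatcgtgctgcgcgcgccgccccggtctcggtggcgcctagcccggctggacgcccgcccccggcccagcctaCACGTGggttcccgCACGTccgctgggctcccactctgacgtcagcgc
Ldhb: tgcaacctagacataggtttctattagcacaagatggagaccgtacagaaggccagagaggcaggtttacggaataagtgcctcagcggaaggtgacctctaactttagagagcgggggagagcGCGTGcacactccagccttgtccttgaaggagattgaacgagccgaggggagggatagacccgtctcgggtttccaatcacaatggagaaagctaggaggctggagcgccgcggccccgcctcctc
G6pdx: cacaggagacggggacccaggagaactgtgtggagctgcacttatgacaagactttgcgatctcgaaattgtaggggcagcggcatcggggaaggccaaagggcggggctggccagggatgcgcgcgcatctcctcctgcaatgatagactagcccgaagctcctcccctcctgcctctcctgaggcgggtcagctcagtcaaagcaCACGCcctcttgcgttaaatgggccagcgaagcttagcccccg
Rpe: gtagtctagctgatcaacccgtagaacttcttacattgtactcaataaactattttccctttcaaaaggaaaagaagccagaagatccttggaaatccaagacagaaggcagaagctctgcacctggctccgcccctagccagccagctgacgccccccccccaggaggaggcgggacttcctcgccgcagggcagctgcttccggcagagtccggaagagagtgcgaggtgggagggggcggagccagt
The Ldha window held 5 matches, 4 of them in its 2 CACGTG palindromes, whereas its sister gene Ldhb held 1. G6pdx also held 1 and Rpe 0.

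Most of these genes did not pass the test between genotypes. Ldhb, the heart-type lactate dehydrogenase subunit, fell most among the members. Hk3, the main hexokinase transcript of these cells, and Pgam1, a phosphoglycerate mutase, were also lower. G6pdx and Rpe, both of the pentose phosphate pathway, were higher. No hypoxia gene passed the test. With limma on log2(TPM + 1) and a Benjamini-Hochberg adjusted p below 0.05, 5 of 36 tested members were called, or 13.9%, against 20.9% of all tested genes. Of these 2 were higher in Plcg2-/-, against 15.6% of all genes, and 3 were lower, against 5.31%. The members' median log2 fold change was 0.07, below the 0.19 of all genes. The values of the genotypes did not overlap for 12 of the 36 members, 6 above and 6 below, while 43.3% of all tested genes did not overlap (32.4% above and 10.9% below). Under median-of-ratios scaling all genes split into 975 higher and 993 lower, in place of 1971 and 672. The members then split into 2 higher (background 7.71%) and 7 lower (background 7.85%), with a median of -0.13. With Y-linked expression as an added term, Ldhb and G6pdx were the members called, 1 lower and 1 higher, against 2.96%, 6.66% and, in either direction, 9.62% of all genes. The limma adjusted p was then 0.0609 for Rpe, 0.0855 for Hk3 and 0.113 for Pgam1. The 5 called members kept their direction under each scaling.

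**Figure D1:**
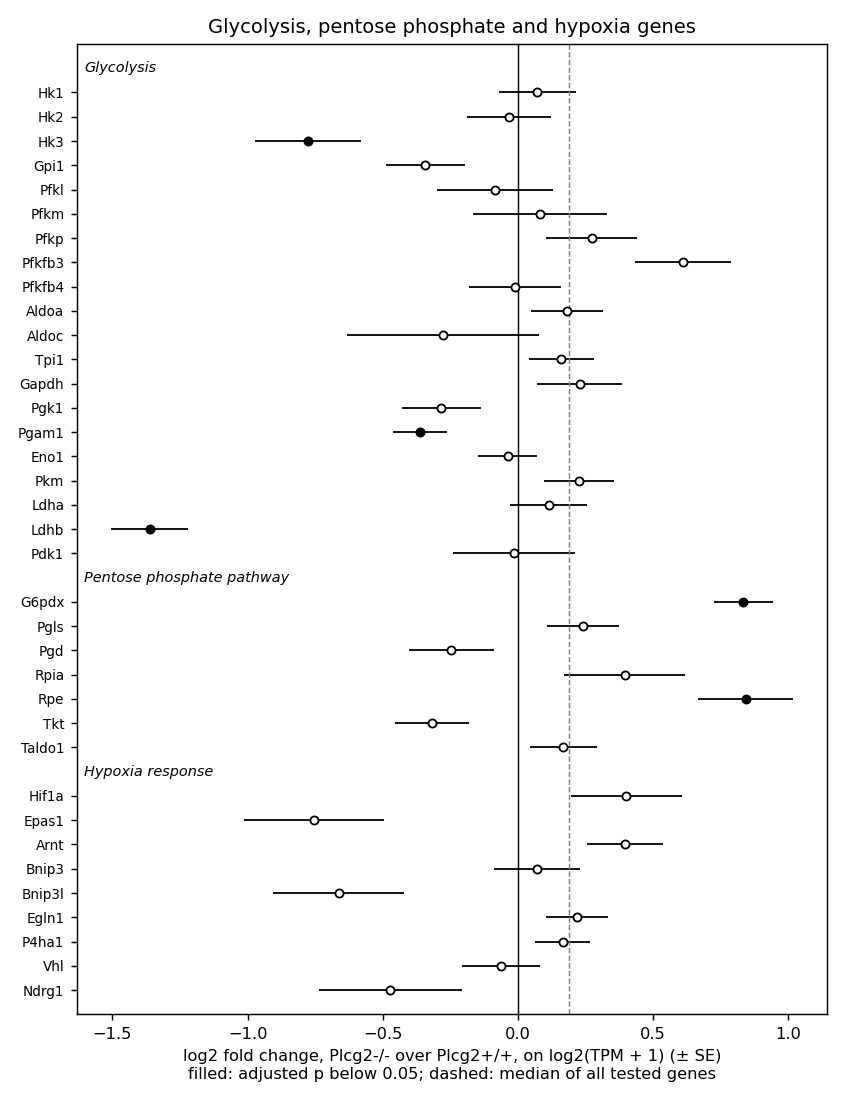
Log2 fold change of each of the 36 tested members, Plcg2-/- over Plcg2+/+ on log2(TPM + 1), with bars of 1 standard error (3 libraries a genotype). Filled points have a limma adjusted p below 0.05, and the dashed line is the median of all tested genes at 0.19. Ldhb lies farthest to the left at -1.36, and G6pdx and Rpe farthest to the right at 0.83 and 0.84.

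Among the glycolysis members 3 of 20 were called, all lower (15.0%, background 5.31%; 20.9% of all genes were called in either direction), and the median log2 fold change was -0.01. None was called higher by limma, and 1 had an unadjusted p below 0.05 in that direction, against 3604 of all 12652 genes. The summed TPM of all glycolysis members was 4371, 4849 and 5161 in Plcg2+/+ and 5029, 5134 and 4905 in Plcg2-/- libraries, so the total overlapped between genotypes.

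Hexokinases trap glucose in the cell as glucose 6-phosphate, and Hk3 is the form typical of myeloid cells. Hk3 (chromosome 13, 55005985 to 55021385, minus strand) was at 161, 196 and 117 TPM in Plcg2+/+ libraries 1 to 3 and at 89.9, 99.9 and 81.1 TPM in Plcg2-/- libraries 1 to 3. Every Plcg2-/- value lay below every Plcg2+/+ value, although Plcg2+/+ library 3 was well below the other 2 of its group. The mean went from 158 ± 39.6 to 90.3 ± 9.37 TPM (SD, n = 3), a log2 fold change of -0.78 ± 0.20 (SE) with a limma adjusted p of 0.0346. That call was lost in 5 of the 6 fits that left out 1 library. Its limma adjusted p was 0.0124 without Plcg2+/+ library 3, but 0.109 without Plcg2+/+ library 1, 0.0843 without Plcg2+/+ library 2, and 0.119, 0.0570 and 0.116 without Plcg2-/- libraries 1, 2 and 3. Hk1 (14.5 to 19.5 TPM) and Hk2 (21.1 to 30.8 TPM), the broadly expressed forms, overlapped between genotypes with limma adjusted p of 0.748 and 0.898. Hk3 supplied 80.5%, 83.6% and 70.95% of the TPM of these 3 hexokinases in Plcg2+/+ and 66.6%, 73.05% and 64.8% in Plcg2-/- libraries, which overlap.

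The steps from glucose 6-phosphate to the triose phosphates showed no called gene. Gpi1, which isomerises glucose 6-phosphate, was at 176, 184 and 214 TPM against 135, 178 and 140.3 TPM. Plcg2-/- library 2 lay within the Plcg2+/+ range, and the limma adjusted p was 0.133, or 0.0475 under median-of-ratios scaling. Phosphofructokinase, the committing step, was mostly Pfkp, at 30.9 to 39.96 TPM in Plcg2+/+ and 35.4 to 49.3 TPM in Plcg2-/-. Pfkl (11.7 to 19.9 TPM) and Pfkm (3.00 to 5.96 TPM) were lower in level, and the limma adjusted p of these 3 genes were 0.278, 0.803 and 0.837.

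Pfkfb3 makes fructose 2,6-bisphosphate, the strongest activator of phosphofructokinase, and was the member nearest to the threshold. It was at 27.3, 23.2 and 19.2 TPM in Plcg2+/+ and 43.4, 33.9 and 30.7 TPM in Plcg2-/- libraries. All 3 Plcg2-/- values lay above the Plcg2+/+ values, with a log2 fold change of 0.61 ± 0.18 and a limma adjusted p of 0.0517. With the replicate number as a block, the limma adjusted p was 0.0134, the difference within same-numbered pairs being 0.65, 0.53 and 0.65 on the log2 scale. Its sister Pfkfb4, at 37.9 to 55.3 TPM, had a log2 fold change of -0.01 and a limma adjusted p of 0.967.

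The aldolases, Tpi1, Gapdh and Pgk1 carry the pathway through the triose phosphates. Aldoa, one of the most abundant members, was at 828 to 1030 TPM in Plcg2+/+ and 1028 to 1143 TPM in Plcg2-/-, with a limma adjusted p of 0.366, while its second row stayed at 0.535 TPM or less. Aldoc, the brain aldolase, was at 16.4, 16.2 and 38.6 TPM against 16.8, 14.0 and 23.7 TPM. Plcg2+/+ library 3 was far above the rest, and the log2 fold change of -0.28 ± 0.35 became 0.12 without it. Tpi1 was at 104 to 135 TPM over all libraries (limma adjusted p 0.372). Pgk1, an X-linked kinase that yields ATP, was at 181, 226 and 172 TPM against 158, 176 and 140.0 TPM, which overlap (limma adjusted p 0.205).

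Pgam1 (chromosome 19, 41911923 to 41918660, plus strand) moves the phosphate of 3-phosphoglycerate. It was at 353, 346 and 356 TPM in Plcg2+/+ and 267, 266 and 287 TPM in Plcg2-/- libraries. The groups were each tight and did not overlap, with means of 352 ± 5.2 and 273 ± 12.05 TPM (SD, n = 3). The log2 fold change was -0.36 ± 0.10 with a limma adjusted p of 0.0426. The limma adjusted p was 0.0618 to 0.131 when any 1 of the 6 libraries was left out, and 0.0589 with the replicate block.

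The Pgam1 value also depends on how reads were divided between copies. Pgam1-ps2, a processed pseudogene (chr7:27469771-27470535, minus strand), matched a Pgam1 transcript of 1775 bases at 100% of the copy's 765 bases, from transcript position 126 to 890, which holds the whole coding sequence at positions 126 to 887. Its opening 120 bases, printed to show what the gene and its copy share, have the start codon in capitals and lie at chr7:27470416-27470535 on the minus strand (GRCm38).
Pgam1 and Pgam1-ps2: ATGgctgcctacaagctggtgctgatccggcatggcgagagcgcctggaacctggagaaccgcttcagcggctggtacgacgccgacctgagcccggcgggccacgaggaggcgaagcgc
In all, 37.1% of the 31-base words of Pgam1 transcripts also occurred in this copy. The deposited table gave the copy 0 TPM in all 3 Plcg2+/+ libraries and 61.1, 0 and 62.4 TPM in Plcg2-/- libraries 1, 2 and 3. Adding it to Pgam1 gave 353, 346 and 356 TPM against 328, 266 and 349.5 TPM, which overlap. The log2 fold change was then -0.17 with a limma adjusted p of 0.382. With copies added, 2 members were called lower, Hk3 and Ldhb, against 5.32% of all genes. Such a sum is approximate, since TPM is per length and the copies differ in length. The copy of 765 bases is shorter than the transcript of 1775 bases, so adding its TPM overstates what its reads would add to Pgam1. Whether the overlap and the lost call hold with lengths matched was not tested.

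Gapdh, the glyceraldehyde 3-phosphate dehydrogenase often taken as a constant reference, shared at least 20% of its 31-base words with each of 13 other genes. Gapdh itself was at 790.5, 800.1 and 1086 TPM in Plcg2+/+ and 1019, 1034 and 1047 TPM in Plcg2-/- libraries. Plcg2+/+ library 3 was the highest of all 6, and the limma adjusted p was 0.329. The sum was taken over 12 of these genes, since the other has no gene row here. The 12 genes summed to 231, 211 and 103 TPM against 501, 269 and 410.4 TPM, higher in every Plcg2-/- library. Gapdh and these 12 genes together came to 1021, 1011 and 1189 TPM against 1520.0, 1303 and 1457 TPM. These did not overlap, with a log2 fold change of 0.41 and a limma adjusted p of 0.0716, but this sum too mixes genes of different length. The copy Gm12671 was identical to Gapdh over 1002 bases and Gm7336 was 99.8% identical over 1200 aligned bases. Gm12671 was at 151, 99.3 and 0 TPM in Plcg2+/+ and 311, 133 and 231 TPM in Plcg2-/- libraries. Its 0 lay in Plcg2+/+ library 3, where Gapdh was highest, and how reads were divided between them was not tested. Gm7336 rose from a mean of 81.3 to 152.5 TPM (limma adjusted p 0.0113).

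**Figure D2:**
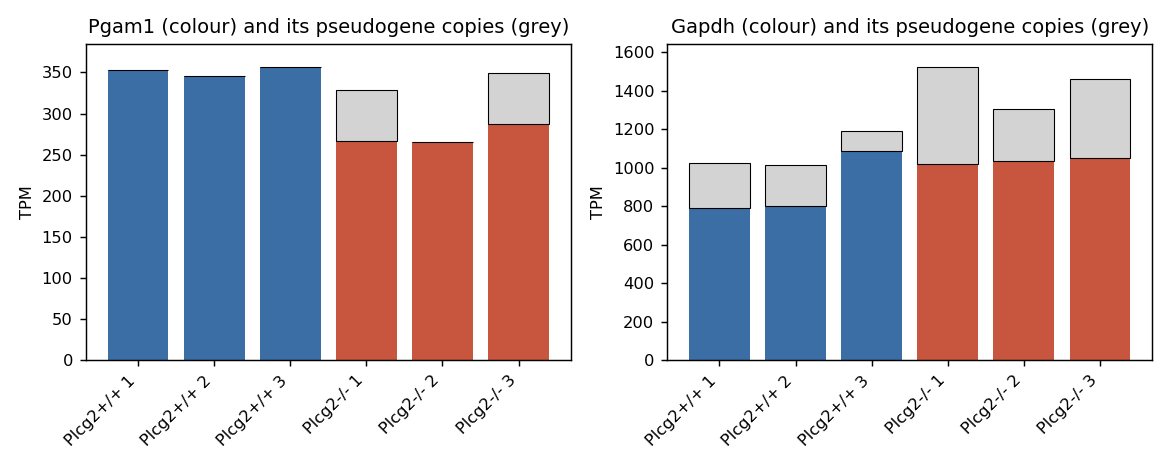
TPM of Pgam1 (left) and Gapdh (right) in each library, in colour (blue Plcg2+/+, red Plcg2-/-), with the summed TPM of genes sharing at least 20% of their 31-base words stacked in grey. The grey part of Pgam1 is present in Plcg2-/- libraries 1 and 3 only, at 61.1 and 62.4 TPM. The stacked sum of library 3 is 349.5 TPM, within the Plcg2+/+ range. Stacked values mix transcripts of different length, and the part of the shorter Pgam1 copy is overstated.

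Enolase and pyruvate kinase complete the route to pyruvate. Eno1 was at 308 to 352 TPM over all 6 libraries, with a log2 fold change of -0.04 and a limma adjusted p of 0.827. Pkm was at 870.5, 1063 and 948 TPM against 1151, 1148 and 1060.0 TPM, an overlap at a single library (limma adjusted p 0.244).

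The lactate dehydrogenase subunits parted. Ldhb (chromosome 6, 142490249 to 142507957, minus strand), whose subunit favours turning lactate into pyruvate, was at 34.4, 33.6 and 36.0 TPM in Plcg2+/+ and 11.8, 15.8 and 11.4 TPM in Plcg2-/- libraries. Each Plcg2-/- value was far below every Plcg2+/+ value. The mean went from 34.7 ± 1.22 to 13.0 ± 2.44 TPM (SD, n = 3), a log2 fold change of -1.36 ± 0.14 with a limma adjusted p of 0.00178. It remained called in all 6 fits without 1 library, with limma adjusted p of 0.00550 to 0.0156. Ldha, whose subunit favours making lactate, was at 375, 394 and 511 TPM against 467, 449.7 and 455 TPM. Its genotypes overlapped, and the limma adjusted p was 0.602. Ldhb shares 33.02% of its 31-base words with Gm5514, which averaged 0.610 TPM in Plcg2+/+ and 0.336 TPM in Plcg2-/-. Ldhb made up 8.40%, 7.86% and 6.59% of the TPM of both subunits in Plcg2+/+ and 2.47%, 3.40% and 2.44% in Plcg2-/- libraries, so Ldha was the major transcript in every library. Pdk1, a kinase that shuts off pyruvate dehydrogenase, was at 6.86 to 11.2 TPM with a log2 fold change of -0.02 and a limma adjusted p of 0.968.

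The pentose phosphate pathway had 2 of its 7 members called, both higher in Plcg2-/- (28.6%, background 15.6%), and a median log2 fold change of 0.24, against 0.19 for all genes. By limma 0 members were called lower, and 0 had an unadjusted p below 0.05 in that direction, against 1155 of all 12652 genes. The 2 called enzymes stand at different points: G6pdx opens the oxidative branch and Rpe belongs to the non-oxidative branch. The summed TPM of the 7 genes overlapped, at 1420.0, 1555 and 1674 against 1521, 1584 and 1658.

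G6pdx (chromosome X, 74409483 to 74429194, minus strand) encodes glucose 6-phosphate dehydrogenase, the entry and rate-setting enzyme of the pathway. It was at 79.9, 83.7 and 83.3 TPM in Plcg2+/+ and 134, 147 and 163 TPM in Plcg2-/- libraries. The Plcg2+/+ values lay within a few TPM of each other, and all Plcg2-/- values were far above them. The means were 82.3 ± 2.04 and 148 ± 14.8 TPM (SD, n = 3), with a log2 fold change of 0.83 ± 0.11 and a limma adjusted p of 0.00413. It stayed called in all 6 fits without 1 library (limma adjusted p 0.0120 to 0.0265). Of its 31-base words 23.6% occur in other genes. G6pd2, the gene with the largest part of them at 12.6% of the words, was at a mean of 0 TPM in both genotypes. Because the gene is X-linked and Xist and Y-linked levels differ between libraries, the fit with Y-linked expression as a term was added after the data were seen. For G6pdx it gave a log2 fold change of 0.81 and a limma adjusted p of 0.0230. Within Plcg2+/+, library 1, with Xist at 50.5 TPM, had G6pdx at 79.9 TPM, next to 83.7 and 83.3 TPM in libraries 2 and 3, with Xist at 0.747 and 1.02 TPM. In Plcg2-/- libraries 1, 2 and 3 Xist was at 18.4, 49.4 and 40.2 TPM, so its level is partly confounded with genotype. The part of sex in the G6pdx difference was not tested.

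Pgls and Pgd follow G6pdx in the oxidative branch, and neither passed the test. Pgls was at 91.3 to 118 TPM in Plcg2+/+ and 114 to 133 TPM in Plcg2-/- (limma adjusted p 0.232). Pgd, which yields the other NADPH of the branch, was at 338.5, 441 and 348 TPM against 269, 338 and 341 TPM. Its log2 fold change was -0.25 ± 0.16, opposite in sign to that of G6pdx, with a limma adjusted p of 0.293.

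Rpe (chromosome 1, 66700831 to 66719805, plus strand) encodes ribulose-phosphate epimerase, which leads to xylulose 5-phosphate. It was at 17.6, 12.1 and 17.8 TPM in Plcg2+/+ and 32.3, 25.4 and 29.2 TPM in Plcg2-/- libraries, with no overlap. The means were 15.85 ± 3.24 and 28.9 ± 3.47 TPM (SD, n = 3), with a log2 fold change of 0.84 ± 0.18 and a limma adjusted p of 0.0194. The limma adjusted p was 0.0508 without Plcg2+/+ library 1, 0.0885 without Plcg2-/- library 1 and 0.0716 without Plcg2-/- library 3. Rpia, the isomerase that leads to ribose 5-phosphate, was at 21.2, 15.8 and 28.7 TPM against 32.7, 23.7 and 29.1 TPM, which overlap (limma adjusted p 0.244).

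Tkt and Taldo1, which connect the pathway back to glycolysis, were its most abundant members beside Pgd. Transketolase, encoded by Tkt, was at 328, 354 and 431 TPM in Plcg2+/+ and 299, 277 and 311 TPM in Plcg2-/- libraries. The Plcg2-/- values all lay below, yet the log2 fold change of -0.32 ± 0.14 had a limma adjusted p of 0.136. Median-of-ratios scaling gave -0.53 and a limma adjusted p of 0.0240. Taldo1 was at 525 to 647 TPM against 622 to 671 TPM (limma adjusted p 0.366).

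**Figure D3:**
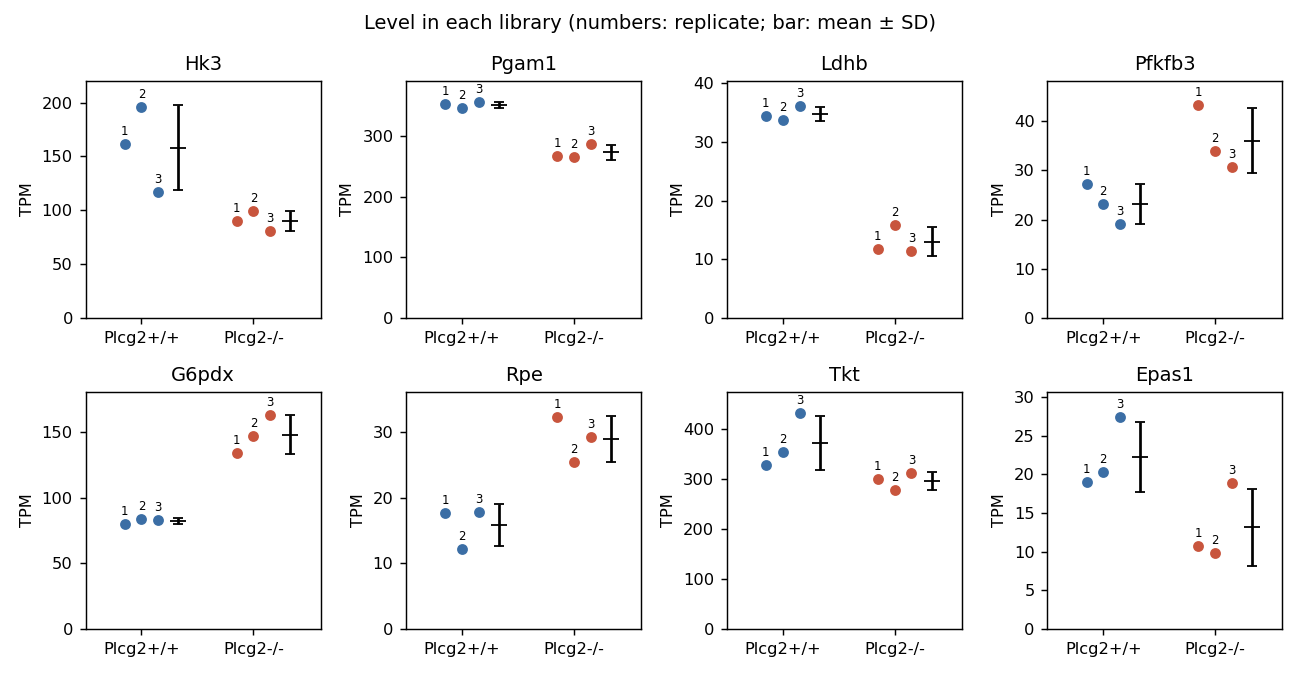
TPM of 8 members in each library (points, numbered by replicate), with the mean and SD of each genotype beside them (3 libraries each). The genotypes do not overlap in any of the 8 panels, but they overlap for 24 of the 36 tested members. Of all tested genes 43.3% do not overlap. Hk3, Pgam1, Ldhb, G6pdx and Rpe were called, and Pfkfb3, Tkt and Epas1 were not.

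In the hypoxia response no member was called. By limma, 0 of 9 tested members passed in either direction, against 20.9% of all genes. An unadjusted p below 0.05 was found for 1 higher and 2 lower, against 3604 and 1155 of all 12652 genes. The median log2 fold change was 0.07. With the replicate block 2 were called higher and 2 lower, against 19.6% and 6.44% of all genes (26.1% in either direction). The inducible genes Vegfa and Egln3 were under the level for testing: Vegfa, the angiogenic factor, was at 0.990, 0.835 and 1.48 TPM against 0.485, 1.03 and 0.627 TPM, and Egln3, a HIF hydroxylase that HIF itself induces, was at 0.571 TPM or less in every library.

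The oxygen-regulated alpha subunits leaned opposite ways without passing. Hif1a was at 25.1, 18.4 and 29.3 TPM against 31.9, 26.3 and 38.4 TPM, which overlap, with a log2 fold change of 0.40 ± 0.21 and a limma adjusted p of 0.20. Epas1, which encodes HIF-2 alpha, was at 19.05, 20.3 and 27.5 TPM against 10.8, 9.78 and 18.9 TPM. Its groups just failed to overlap, Plcg2-/- library 3 lying close under Plcg2+/+ library 1. The log2 fold change was -0.75 ± 0.26 with a limma adjusted p of 0.0805, and 0.0338 without Plcg2-/- library 3. Epas1 made up 43.2%, 52.4% and 48.4% of the TPM of the 2 subunits in Plcg2+/+ and 25.3%, 27.1% and 33.03% in Plcg2-/- libraries. These shares did not overlap and are given without a test.

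Same-numbered libraries deviated together, and a block on that number changed several of these calls. The blocked limma adjusted p was 0.0377 for Hif1a, 0.0161 for Epas1, 0.0449 for Arnt and 0.0250 for Bnip3l. Under median-of-ratios scaling without the block it was 0.0378 for Epas1 and 0.0365 for Bnip3l, while Hif1a and Arnt were at 0.484 and 0.311. Arnt, the partner of the alpha subunits, was at 17.3, 14.6 and 16.9 TPM against 22.1, 18.5 and 24.7 TPM, without overlap (log2 fold change 0.40 ± 0.14, limma adjusted p 0.0859).

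**Figure D4:**
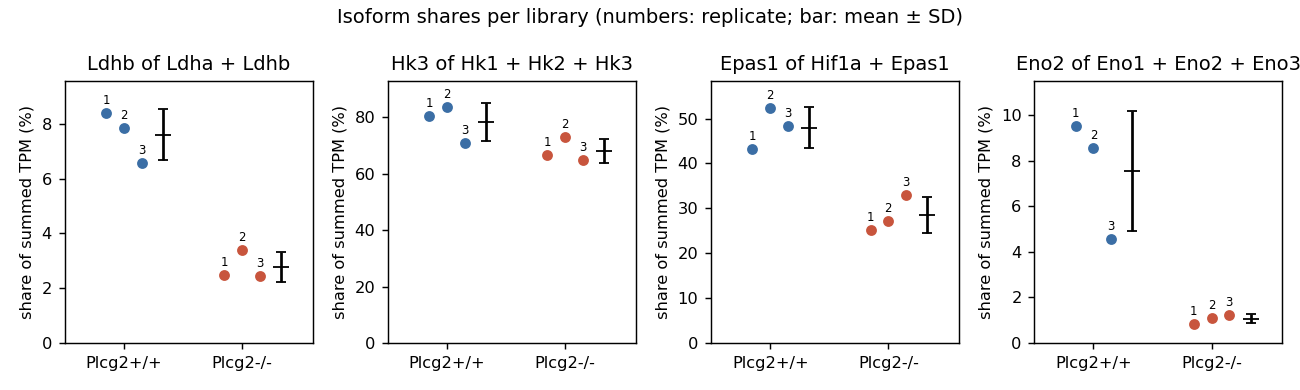
Share of summed TPM (%) taken by Ldhb, Hk3, Epas1 and Eno2 within their gene families in each library (points, numbered by replicate), with the mean and SD of each genotype. The shares of Ldhb, Epas1 and Eno2 lie lower in every Plcg2-/- library, whereas those of Hk3 overlap between genotypes.

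Bnip3 and Bnip3l encode mitophagy receptors that HIF induces. Bnip3l was at 129, 103 and 134 TPM in Plcg2+/+ and 86.4, 52.3 and 98.4 TPM in Plcg2-/- libraries. All Plcg2-/- values lay below the Plcg2+/+ ones, with a log2 fold change of -0.66 ± 0.24 and a limma adjusted p of 0.0940. Bnip3 was at 9.77 to 13.2 TPM over all libraries, with a log2 fold change of 0.07 that was -0.13 under median-of-ratios scaling, and 57.0% of its 31-base words occur in other genes. Computed without the mitochondrially encoded genes, whose share of TPM differed between genotypes, the log2 fold change of Bnip3l was -0.80 (limma adjusted p 0.0644).

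The oxygen sensors and the remaining targets did not pass the test. Egln1, the main HIF hydroxylase, was at 15.8, 14.95 and 18.2 TPM against 19.1, 19.8 and 18.4 TPM, and Vhl, which marks hydroxylated HIF for degradation, at 10.8 to 15.2 TPM against 11.5 to 12.9 TPM. Their limma adjusted p were 0.209 and 0.783. P4ha1, a collagen prolyl hydroxylase, was at 59.8 to 65.3 TPM against 67.0 to 75.6 TPM, which do not overlap (limma adjusted p 0.275). Ndrg1 was at 6.29, 12.9 and 7.44 TPM against 6.76, 4.60 and 6.37 TPM, with Plcg2+/+ library 2 far above the rest (limma adjusted p 0.236).

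Aldoc and Ndrg1 are also expressed by astrocytes, which form the monolayer of the mixed cultures, and by oligodendrocytes. The 8 astrocyte markers summed to 14.0 to 21.9 TPM in Plcg2+/+ and 29.1 to 40.8 TPM in Plcg2-/-. Most of that was Aldh1l1, which was called higher, while Gfap was at 5.15 TPM or less and Sox9 at 0.0641 TPM or less. The 8 oligodendrocyte lineage markers summed to 55.9 to 122.5 TPM over all libraries, highest in Plcg2+/+ library 2, and were mostly Mbp. Cspg4 was the 1 marker called in that list, falling from a mean of 9.62 to 0.471 TPM (limma adjusted p 0.00141). The 4 endothelial markers, chiefly Flt1, summed to 10.06 to 16.9 TPM against 3.69 to 5.27 TPM, and the 5 fibroblast markers to 2.75 TPM or less. Flt1 alone went from a mean of 12.5 to 3.65 TPM. Pecam1, Cdh5 and Cldn5 averaged 0.431, 0.474 and 0.0508 TPM in Plcg2+/+ and 0.435, 0.461 and 0.112 TPM in Plcg2-/-. The part of these cells in the members' values was not tested.

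Other genes of glucose, lactate and pyruvate handling had log2 fold changes from -2.61 to 2.03, against -1.36 to 0.84 among the members. Of 38 such genes, 36 were tested, 5 were higher and 4 lower in Plcg2-/-, a share of 25.0% against 20.9% of all genes, and their median log2 fold change was 0.22. This list too was chosen with earlier results of these data known. Slc2a1, the GLUT1 glucose carrier, fell from 104, 113 and 90.1 TPM to 33.6, 39.6 and 40.7 TPM, a log2 fold change of -1.40 ± 0.13 (limma adjusted p 0.00135). Slc2a6, another sugar carrier of the family, rose from 33.4, 36.7 and 55.3 TPM to 109.7, 102 and 106 TPM, a log2 fold change of 1.35 ± 0.19 (limma adjusted p 0.00517). The genotypes of both carriers did not overlap, so the balance between these 2 transcripts turned over: Slc2a1 was the higher in every Plcg2+/+ library and Slc2a6 in every Plcg2-/- library.

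Eno2, the neuronal form of enolase, fell from 33.1, 33.3 and 16.6 TPM to 2.93, 3.56 and 3.99 TPM, a log2 fold change of -2.61 ± 0.27 (limma adjusted p 0.00178). Its share of enolase TPM went from 9.54%, 8.54% and 4.56% to 0.842%, 1.10% and 1.22%, while the 6 neuron markers summed to 10.9 TPM or less in every library and overlapped. Pdk3, an X-linked pyruvate dehydrogenase kinase, rose from 9.75, 7.29 and 10.0 TPM to 57.8, 28.6 and 37.7 TPM (log2 fold change 2.03 ± 0.26, limma adjusted p 0.00351). Slc16a7, a monocarboxylate carrier, rose by 0.56 ± 0.11 on the log2 scale, and Prps2, which turns ribose 5-phosphate into the nucleotide precursor PRPP, by 0.71 ± 0.14 (limma adjusted p 0.0155 and 0.0169).

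The other 3 called genes of that list are named after their values were seen. The lactate carriers Slc16a1 and Slc16a3 fell from 10.9 to 5.99 TPM and from 44.9 to 27.0 TPM, with limma adjusted p of 0.0203 and 0.0180. Mpc1, a subunit of the mitochondrial pyruvate carrier, rose from 159.7 to 255.7 TPM (limma adjusted p 0.0203).

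Among 24 other genes of the HIF pathway, 20 were tested, 4 were higher (background 15.6%) and 4 lower (background 5.31%), a share of 40.0% against 20.9% of all genes, and their median log2 fold change was 0.20. This list was chosen with earlier results of these data known, so its share is descriptive only. Without the filter on level, 2 of the 24 were called higher and 2 lower, against 1226 and 500 of all 26346 gene rows. Of the 20 log2 fold changes, 12 were positive and 8 negative. Uncalled genes of the list, named after their values were seen, went both ways. P4ha2, Kdm3a, Mxi1, Higd1a and Car9 were at 0.61, 0.22, 0.20, 0.20 and 0.11 on the log2 scale. Ero1l, Hmox1 and Ankrd37 were at -0.38, -0.12 and -0.10. Whether HIF activity differed between genotypes was not tested. The lower called genes included Lox and Hilpda, which HIF is known to induce. Lox, a collagen cross-linking oxidase, fell from 17.8, 24.4 and 14.0 TPM to 0.949, 2.48 and 1.80 TPM, a log2 fold change of -2.85 ± 0.27 (limma adjusted p 0.00141). Hilpda, a lipid droplet protein, fell from 16.9, 19.8 and 19.5 TPM to 6.33, 7.94 and 7.15 TPM, a log2 fold change of -1.28 ± 0.13 (limma adjusted p 0.00166). Bhlhe40, a transcriptional repressor, fell from a mean of 62.5 to 31.6 TPM (limma adjusted p 0.0288).

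The higher called genes of the HIF pathway included Egln2 and Cited2, which are known to restrain it. Egln2, a HIF hydroxylase, rose from 28.9, 28.0 and 27.3 TPM to 46.1, 41.9 and 44.1 TPM, a log2 fold change of 0.63 ± 0.10 (limma adjusted p 0.00700). Cited2, which competes with HIF for its coactivator, rose from a mean of 60.7 to 113 TPM (limma adjusted p 0.0169). Eloc, part of the complex that holds VHL, rose from 81.8 to 111 TPM (limma adjusted p 0.0370). Its partner Elob and the collagen hydroxylase subunit P4hb, named after their values were seen, had log2 fold changes of 0.37 and -0.37 (limma adjusted p 0.0436 and 0.0486). Median-of-ratios scaling left 2 of the 4 higher calls, those of Elob and Eloc being lost.

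**Figure D5:**
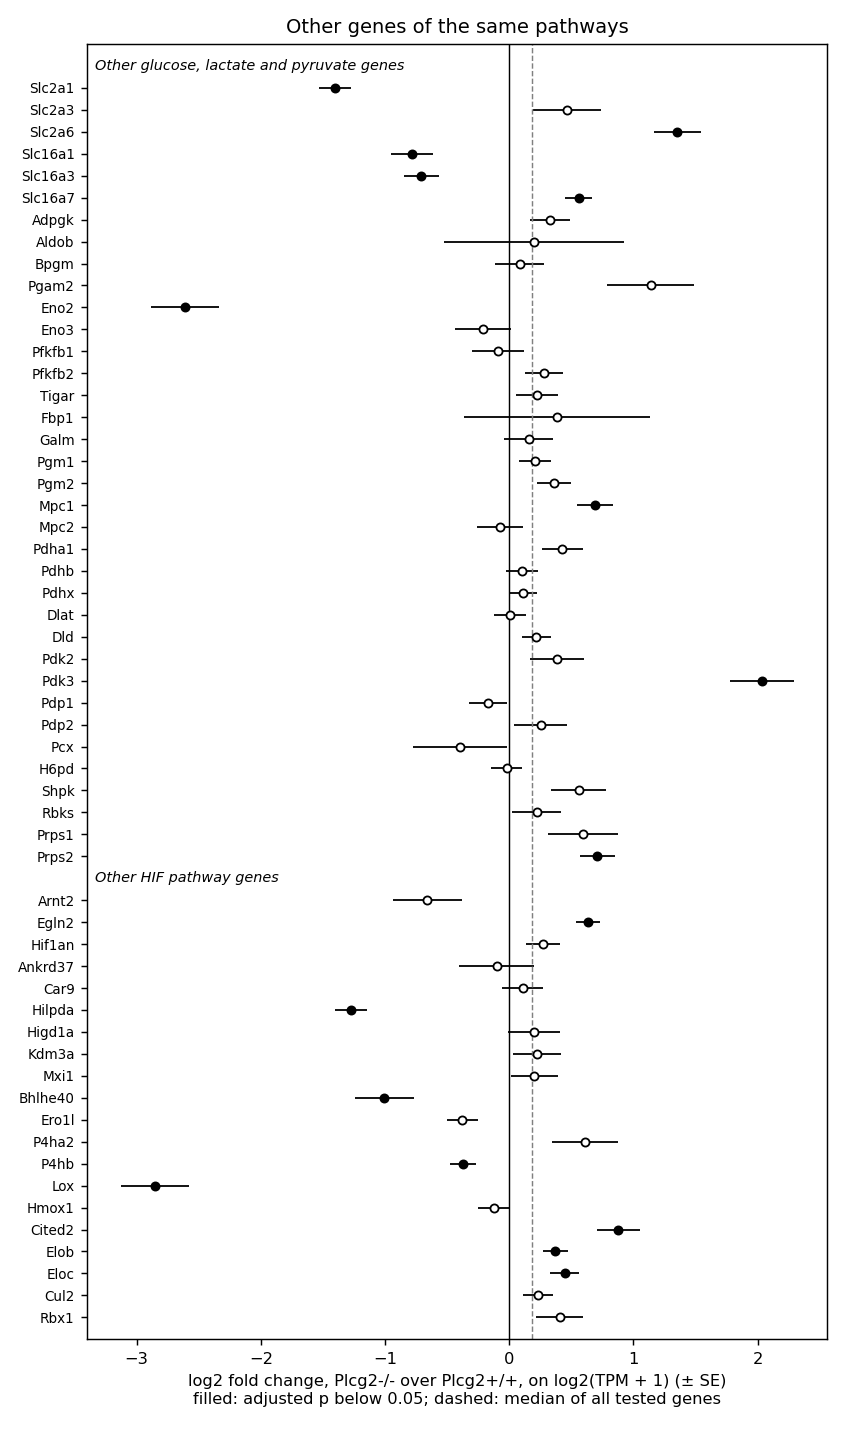
Log2 fold change of the 36 tested genes of glucose, lactate and pyruvate handling and the 20 of the HIF pathway that are not members, drawn as for the members (points with 1 standard error, filled where called by limma). Lox at -2.85 and Eno2 at -2.61 lie farthest to the left, and Pdk3 at 2.03 farthest to the right.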

How the data were processed

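Poly(A)-selected RNA of 3 Plcg2+/+ and 3 Plcg2-/- microglia libraries was read as 150-base pairs per the labels' protocols. The authors deposited TPM values per gene, a unit with the same total in every library, so the depth behind a value is unknown and no counting interval is given. Salmon 1.3.0, DESeq2 1.30.1, R 4.0.4 and GRCm38.p6 are named per the submitters' processing notes, without roles.

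Genes with a mean of at least 1 TPM (12652 of 54347) were tested on log2(TPM + 1) with limma 3.58.1 in R 4.3.3 (trend, two-sided, Benjamini-Hochberg over all tested genes, threshold 0.05). Fold changes are on that log2 scale, which understates those of low genes. The scripts were tested on simulated data. The members and lists were chosen with earlier results of these data known. Every member is named, and of each list of other pathway genes the called ones, up to 6 by smallest p. Genes of these lists named beyond that are marked where they appear. Alternatives varied the pseudocount, filter, scaling, prior variance, replicate block and libraries. Fits with copies added and with a Y-linked covariate were chosen after seeing the data.

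Same-numbered libraries deviated together, with correlations of their deviations from group means of 0.295, 0.193 and 0.147, each above 0.1. The main fit used no block. The numbers were taken as pairs only in the blocked fits and in the differences within same-numbered pairs. The pairing comes from the data, since no label says that a number marks a litter. The blocked p-values by limma therefore rest on a pairing read from the same values and are not independent of it. Words of 31 bases shared between transcripts were counted in GENCODE M21, and promoter windows came from RefSeq.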

Additional observations from a re-analysis of the deposited data

How the results depend on the processing

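The calls of Ldhb and G6pdx held under every alternative run. Those of Hk3, Pgam1 and Rpe did not, and the causes were not tested. With only 3 libraries a genotype and no read depth, small differences cannot be resolved.

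With the replicate block, 5 of 36 members were called higher, against 19.6% of all genes, and 4 lower, against 6.44%. The higher ones were 1 of glycolysis, 2 of the pentose phosphate pathway and 2 of hypoxia. The lower ones were 2 of glycolysis and 2 of hypoxia. Of the 20 other HIF pathway genes, 2 were higher and 3 lower. With the block and median-of-ratios scaling, 1104 genes were higher and 1127 lower, 8 members lower (5 of glycolysis, 1 of the pentose phosphate pathway, 2 of hypoxia), 1 glycolysis member higher and 2 other HIF pathway genes higher.

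Median-of-ratios scaling gave 975 genes higher, 7 members lower (1 pentose phosphate, 2 hypoxia) and 2 other HIF pathway genes higher. Quantile normalization gave 967 higher and 1029 lower, 7 members lower (1 pentose phosphate, 2 hypoxia), 3 other glucose genes and 2 other HIF pathway genes higher. Leaving out mitochondrially encoded genes gave 1222 higher and 2 other HIF pathway genes higher, and a constant prior variance also gave 2 of the latter. Without the filter on level, all 26346 detected gene rows were tested, and 1226 were higher and 500 lower. Of 39 member rows, 2 were higher and 1 lower (of glycolysis), and 2 other HIF pathway genes were called in each direction. The limma adjusted p was then 0.0788 for Hk3 and 0.0637 for Pgam1. With a mean of at least 5 TPM, 2016 of 9263 genes were higher. Of 35 members 3 were higher, among them 1 of glycolysis, Pfkfb3. With the Y-linked covariate, 842 genes were higher and 375 lower, 1 member higher (pentose phosphate) and 1 lower (glycolysis), 3 other glucose genes higher and 2 lower, and 1 other HIF pathway gene higher and 2 lower.

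Leaving out 1 library at a time gave 559 to 2106 genes higher and 276 to 644 lower. The fewest came without Plcg2-/- library 1, and the most without Plcg2+/+ library 3. Members called were 1 to 2 higher and 1 to 2 lower, glycolysis 1 to 2 lower, pentose phosphate 1 to 2 higher and hypoxia 0 to 1 lower. Other glucose genes were 2 to 5 higher and 2 to 4 lower, and other HIF pathway genes 1 to 3 higher and 2 to 3 lower.

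Some uncalled log2 fold changes changed sign. Median-of-ratios scaling, with or without the block, gave Hk1 -0.13, Pfkm -0.093, Aldoa -0.035, Tpi1 -0.054, Ldha -0.10, Taldo1 -0.049, Bnip3 -0.13 and P4ha1 -0.048. Quantile normalization gave Hk1 -0.15, Aldoa -0.081, Tpi1 -0.14, Gapdh -0.067, Pkm -0.0102, Ldha -0.097, Pgls -0.057, Taldo1 -0.094, Bnip3 -0.12, Egln1 -0.015 and P4ha1 -0.14. Without mitochondrially encoded genes they were -0.055 for Hk1, -0.026 for Pfkm, -0.0204 for Ldha and -0.052 for Bnip3. The Y-linked covariate gave Hk2 0.0056 and Eno1 0.018. Leaving out 1 library gave ranges of -0.0036 to 0.20 for Hk1, -0.15 to 0.12 for Hk2, -0.21 to 0.15 for Pfkl, -0.10 to 0.29 for Pfkm, -0.16 to 0.10 for Pfkfb4, -0.48 to 0.12 for Aldoc, -0.094 to 0.0023 for Eno1, -0.22 to 0.15 for Pdk1, -0.027 to 0.20 for Bnip3 and -0.17 to 0.058 for Vhl.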
